A study of Arabidopsis thaliana with 12 samples.

Results

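The alternative oxidases and a small group of nuclear genes for mitochondrial proteins were followed across 4 doses of Rose Bengal (RB). This dye makes singlet oxygen in the light. Several of these genes are known to rise when mitochondria are disturbed. The group held 10 genes, taken by their identifiers: the alternative oxidases AOX1A (AT3G22370), AOX1C (AT3G27620) and AOX1D (AT1G32350), the alternative NAD(P)H dehydrogenases NDA1 (AT1G07180), NDA2 (AT2G29990) and NDB2 (AT4G05020), the outer membrane ATPase OM66 (AT3G50930), UPOX (AT2G21640), and the dicarboxylate carriers DIC1 (AT2G22500) and DIC2 (AT4G24570). Of these 10, 8 were among the 13307 genes with counts, and AOX1C and UPOX were not analysed here. All 8 had reads in every library and entered the test. The RNA came from intact wild type seedlings of the Col-0 accession of Arabidopsis thaliana at 2 weeks of age, with no transgene or mutation in any group. Seedlings of every group had first stood in water, then spent 2 h under light of 30 µE with RB at 0, 10, 100 or 400 µM, so that the 0 µM group shared the water and the light with the others. Each dose had 3 MARS-seq libraries, which count the 3′ ends of polyadenylated RNA. The labels name RB for these samples, whereas DCMU, a herbicide, stands beside this series in the data set list of the study, and the labels were followed.

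In the inner mitochondrial membrane of plants, electrons from respiration can leave the ubiquinone pool by the cytochrome pathway, which pumps protons, or through an alternative oxidase, which passes them straight to oxygen without pumping. The alternative NAD(P)H dehydrogenases feed electrons into the same pool without pumping protons, NDA1 and NDA2 from the matrix side and NDB2 from the outer face of the inner membrane, and together with the oxidase they form a respiratory chain that conserves little energy. DIC1 and DIC2 carry malate and other dicarboxylates across the inner membrane, and OM66 is an AAA-type ATPase of the outer membrane. Several of these genes are textbook targets of mitochondrial retrograde signalling, in which the membrane-bound NAC transcription factors ANAC013 and ANAC017 bind a short sequence, the mitochondrial dysfunction motif, in the promoters of nuclear genes.

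Library totals ran from 1499791 to 3608636 reads, so that 1 read was worth 0.262 to 0.615 CPM, the reads of a gene per library scaled to a common total with TMM factors. Under RNA extraction, the study's methods describe each biological replicate as a pool of whole seedlings, with 3 replicates per treatment. Neither the labels nor the account of the sequencing ties the libraries to those pools, and p-values here reflect the spread between libraries. Replicate 1 at 10 µM, replicate 1 at 100 µM and replicate 2 at 400 µM stood apart within their dose on a principal component. This was the first component of the differences from each dose's mean in log2(CPM + 1), for genes averaging at least 10 CPM. It held 33.4% of the variance left within doses, and it does not compare doses. For replicates 1, 2 and 3 the scores were -0.37, 0.15 and 0.21 at 10 µM and -0.65, 0.38 and 0.27 at 100 µM. At 400 µM they were 0.23, -0.28 and 0.05, so that replicate 2 was little farther out than replicate 1. Values without the 3 libraries named as standing apart are given below. The label of whole seedlings was met by both tissues, since all 6 shoot markers had reads in every library and the root markers had summed levels of 214 to 292 CPM at 0 µM. Root marker levels were 112 to 134 CPM at 10 µM, 106 to 109 CPM at 100 µM and 60.1 to 72.7 CPM at 400 µM, where COBL9 had 0 reads and EXPA7 had 1. The root markers fell unevenly. PRP3 had mean levels of 75.9, 12.1, 7.61 and 1.40 CPM at 0, 10, 100 and 400 µM. CASP1 had 57.8, 45.8, 53.4 and 37.0 CPM, and CASP2 had 16.2, 13.6, 13.2 and 10.4 CPM. Of the 8 root markers 4, 4 and 7 were called lower (edgeR adjusted p under 0.05) at 10, 100 and 400 µM, against 1.07%, 4.22% and 6.43% of all genes. Of the 6 shoot markers 1, 2 and 1 were called lower and 0, 0 and 1 higher, with 2.66%, 7.32% and 9.11% of all genes called higher. Summed shoot markers ran from 25506 to 26022 CPM at 0 µM and from 17494 to 24859 CPM over the treated libraries. The part of these tissue markers in the results was not tested. In whole seedlings, fewer cells of a type and less RNA of a marker gene per cell cannot be told apart.

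The mitochondrial dysfunction motif was looked up in the 1000 bases before each gene's start in RefSeq's annotation of the TAIR10.1 genome, as CTTG, then 5 free bases, then CAAG or CACG, on both strands. It was found before 501 of 12984 genes of the count table (3.86%) and before NDA1 and NDB2 among the 8 genes with counts (25%), and also before UPOX. Among 12 other genes known for mitochondrial dysfunction, 5 had it, as did 2 of 6 other genes of the alternative respiratory pathway, 3 of 17 of the cytochrome pathway, 1 of 12 regulators, 1 of 7 for pores and chaperones and 0 of 7 other carriers. Matches of COX5B-2, CI51 and AT5G47030 of the cytochrome pathway, of the chaperone gene MTHSC70-1, and of NDB3 and CYP81D8 lay inside other annotated genes. The count over all genes did not leave out such matches. The stretches below are printed to show the motif close to the start of the only 2 genes with counts that had it, and of 2 mitochondrial small heat shock protein genes described further on. Each is written 5′ to 3′ on the strand of its gene, with the motif in capitals.
NDA1, chr1:2204004-2204076, motif 70 bases before the start: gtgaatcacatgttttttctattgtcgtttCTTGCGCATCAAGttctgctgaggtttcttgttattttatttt
NDB2, chr4:2572318-2572390, motif 79 bases before the start: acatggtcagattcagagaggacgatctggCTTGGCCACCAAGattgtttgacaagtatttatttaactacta
HSP23.5, chr5:20891023-20891095, motif 110 bases before the start: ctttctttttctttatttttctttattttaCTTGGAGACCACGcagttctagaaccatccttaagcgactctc
HSP23.6, chr4:12916850-12916922, motif 46 bases before the start: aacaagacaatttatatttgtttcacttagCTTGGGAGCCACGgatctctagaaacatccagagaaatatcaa
In NDA1 and NDB2 the motif has the CAAG ending, with which the pattern matches on both strands, whereas HSP23.5 and HSP23.6 have the CACG ending. NDB2 had another match 652 bases before its start, inside the neighbouring gene AT4G05018. Besides HSP23.5 and HSP23.6, the motif was found before CRF6, AT2G04050 and CYP81D8 of the other dysfunction genes. CRF6 had matches 298 and 542 bases before its start, and AT2G04050 had them 156 and 215 bases before. Neither was called at any dose. CRF6 had mean levels of 26.6, 25.2, 28.1 and 24.3 CPM at 0, 10, 100 and 400 µM. AT2G04050 had 4.53, 5.18, 5.62 and 6.45 CPM. Whether the motif goes with a rise was not tested. A match is a description of letters, and no match, as in AOX1A, AOX1D, OM66, DIC1, DIC2 and NDA2, says only that these letters are not in this window before the annotated start.

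Of the 8 genes, 7 were higher at 100 and at 400 µM than in untreated seedlings, and 5 were higher at 10 µM. DIC2 and OM66 had the largest changes at every dose and NDA1 was the only gene of the 8 not called at any dose. The comparisons with 0 µM share the same 3 untreated libraries. At 10 µM the genes called higher were AOX1A, NDB2, OM66, DIC1 and DIC2, against 2.66% of all genes called higher and 1.07% called lower by edgeR at an adjusted p under 0.05. At 100 µM the background was 7.32% higher and 4.22% lower, and at 400 µM it was 9.11% and 6.43%. AOX1A, AOX1D, NDA2, NDB2, OM66, DIC1 and DIC2 were called higher at both of these doses, and none of the 8 was called lower in any comparison. The median log2 fold change of the 8 genes was 1.00, 1.71 and 1.88 at 10, 100 and 400 µM, beside 0.02, -0.04 and -0.04 over all genes. Their summed level was 171 to 183 CPM in untreated libraries, 375 to 543 CPM at 10 µM, 713 to 860 CPM at 100 µM and 915 to 1049 CPM at 400 µM, with no overlap between neighbouring doses. DIC1 and DIC2 made up the largest parts of this sum, with mean levels of 287 and 349 CPM at 400 µM. Mean levels of AOX1A, NDA1 and NDB2 were lower at 400 than at 100 µM, and those of the other genes higher. None of the 8 was called between 100 and 400 µM.

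**Figure D1:**
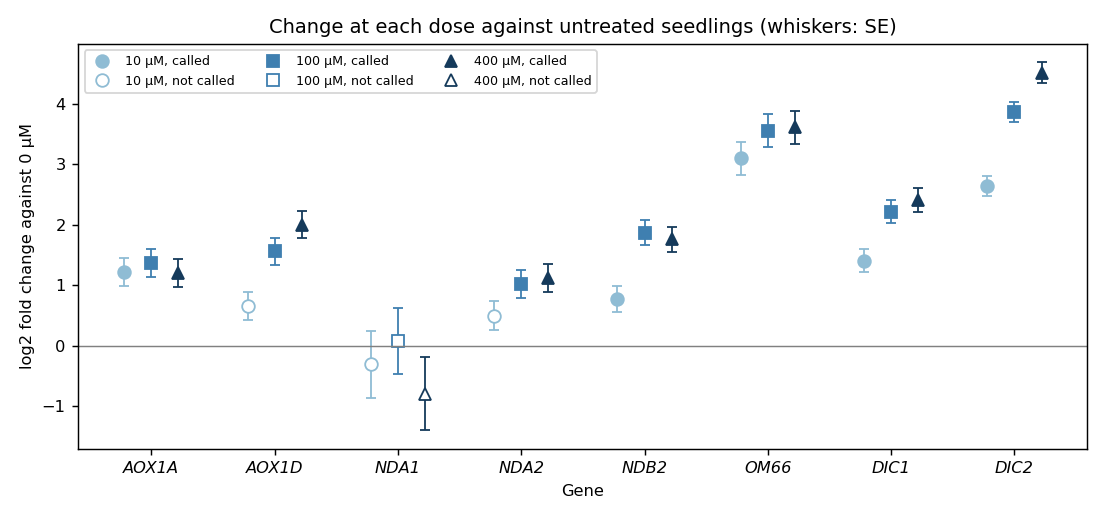
Log2 fold change of each of the 8 genes at 10, 100 and 400 µM RB against 0 µM (y axis; whiskers are SE, n = 3 libraries per dose; filled symbols were called at an edgeR adjusted p under 0.05). DIC2 reached 4.52 and OM66 3.61 at 400 µM, while all 3 symbols of NDA1 are open.

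AOX1A, the alternative oxidase gene most often used as a readout of mitochondrial stress, rose at the lowest dose, and no further step between neighbouring doses was called. It lies at chr3:7906521-7908746 on the plus strand, with 4 exons. AOX1A had 38.4, 32.6 and 43.4 CPM in the untreated libraries, 84.9, 68.7 and 115 CPM at 10 µM, 105, 113 and 76.8 CPM at 100 µM, and 71.1, 72.8 and 117 CPM at 400 µM. Every treated library lay above every untreated one, and the 3 treated doses overlapped each other. The log2 fold change of AOX1A was 1.22 (SE 0.23, edgeR adjusted p = 0.00263) at 10 µM, 1.37 (SE 0.23, adjusted p = 0.000323) at 100 µM and 1.20 (SE 0.23, adjusted p = 0.000969) at 400 µM. From 10 to 100 µM it was 0.15 (SE 0.22, edgeR adjusted p = 0.765), which was not called.

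AOX1D, the other oxidase gene counted, lies at chr1:11666886-11668690 on the minus strand, with 3 exons, and its level was highest at 400 µM. It had 27.0, 23.1 and 33.0 CPM in untreated libraries, 52.1, 38.3 and 40.0 CPM at 10 µM, 70.8, 76.6 and 96.9 CPM at 100 µM, and 93.6, 88.0 and 149 CPM at 400 µM. The groups at 0, 10 and 100 µM did not overlap each other, and RB 400 µM replicate 3 was far above the other libraries of its dose. The difference at 10 µM, 0.66 (SE 0.23, edgeR adjusted p = 0.139), did not pass the test although the groups did not overlap. At 100 µM the log2 fold change of AOX1D was 1.56 (SE 0.22, edgeR adjusted p = 5.70e-05) and at 400 µM 2.00 (SE 0.22, adjusted p = 1.98e-06). The step from 10 to 100 µM was called at 0.90 (SE 0.22, edgeR adjusted p = 0.0231). It was no longer called in 6 of 19 alternatives, namely when scaled by library totals alone, when only the 6 libraries compared were fitted, and when replicate 2 or 3 of either dose was left out. Over the alternatives its adjusted p ran from 0.000871 to 0.119.

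**Figure D2:**
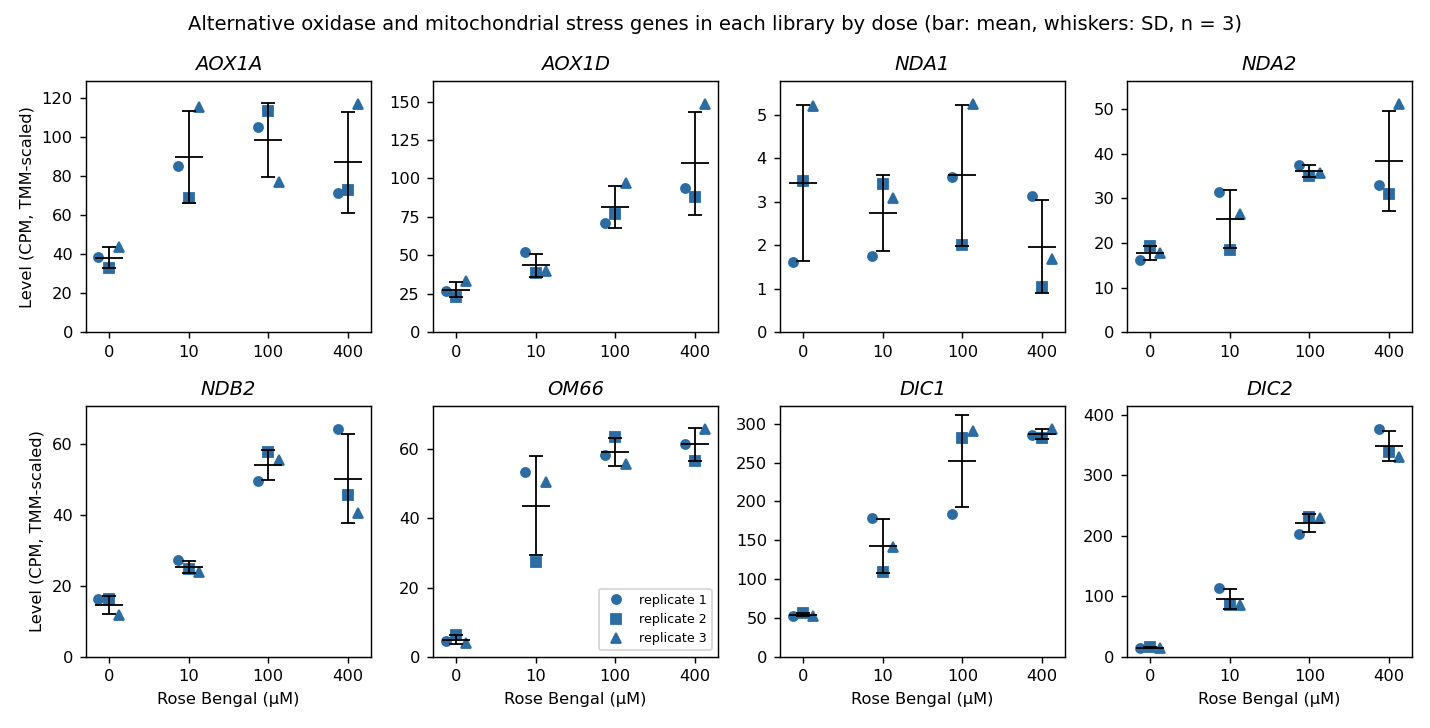
Level of the 8 genes in each library (y axis, CPM scaled by TMM factors) by RB dose (x axis, µM, not to scale), with symbols for the 3 replicates, a bar for the mean and whiskers for the SD (n = 3). AOX1A is as high at 10 µM (68.7 to 115 CPM) as at 400 µM (71.1 to 117 CPM), whereas DIC2 climbs at each dose.

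The share of AOX1D in the reads of both oxidases needs no scaling between libraries. It was 42.0% ± 1.02 (SD, n = 3) at 0 µM, 33.2% ± 6.52 at 10 µM, 45.5% ± 8.93 at 100 µM and 55.8% ± 1.06 at 400 µM. Untreated libraries ran from 41.4% to 43.2% and those at 400 µM from 54.7% to 56.8%, so that these groups did not overlap, and the libraries at 10 µM, from 25.8% to 38.0%, were all below the untreated ones. Libraries at 100 µM were split, with RB 100 µM replicate 3 at 55.8% (95% Wilson interval 50.6% to 60.8%) and the other two at 40.2% and 40.4%. With 3 libraries against 3 an exact permutation test cannot go below p = 0.1, and no test of the shares was run. The last 300 bases of the AOX1A and AOX1D transcripts, where the reads of this method fall, share no run longer than 8 bases, and their coding sequences are 70.0% identical.

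**Figure D3:**
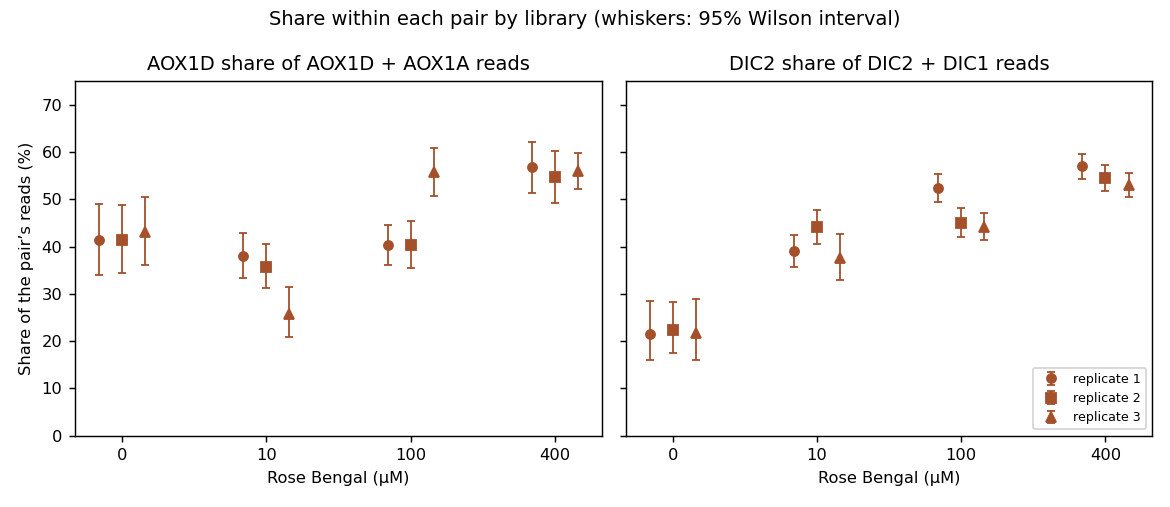
Share of AOX1D in the reads of AOX1D and AOX1A (left) and of DIC2 in the reads of DIC2 and DIC1 (right) in each library (y axis, percent) by RB dose (x axis, µM, not to scale); whiskers are 95% Wilson intervals, which cover counting error only. The DIC2 share lies between 21.6% and 22.4% in the untreated libraries and between 52.9% and 56.9% at 400 µM.

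Of the 3 alternative dehydrogenases, NDB2 and NDA2 rose at 100 and 400 µM, and NDA1 was not called. NDB2 is the dehydrogenase of the 3 that works at the outer face of the inner membrane. It lies at chr4:2572427-2576599 on the plus strand, with 10 exons, and carries the motif printed above. NDB2 had 16.1, 16.1 and 11.7 CPM in untreated libraries, 27.1, 24.7 and 24.0 CPM at 10 µM, 49.4, 57.6 and 55.4 CPM at 100 µM, and 64.3, 45.6 and 40.6 CPM at 400 µM. The first 3 doses were separate from each other, and the libraries at 400 µM spanned those at 100 µM. Its log2 fold change was 1.87 (SE 0.21, edgeR adjusted p = 2.43e-06) at 100 µM and 1.76 (SE 0.21, adjusted p = 4.38e-06) at 400 µM. At 10 µM it was 0.78 (SE 0.21, edgeR adjusted p = 0.0494), and this call was lost in 12 of 19 alternatives, over which the adjusted p ran from 0.0295 to 0.210. With the replicate number as a block NDB2 at 10 µM had 0.77 (edgeR adjusted p = 0.0558). From 10 to 100 µM NDB2 rose by 1.09 on the log2 scale (SE 0.20, edgeR adjusted p = 0.00309), a call that held in all 19.

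NDA2, an internal dehydrogenase, lies at chr2:12793320-12796085 on the minus strand and rose about as much at 100 as at 400 µM. Its levels were 16.1, 19.3 and 17.8 CPM at 0 µM, 31.3, 18.4 and 26.5 CPM at 10 µM, 37.6, 35.1 and 35.8 CPM at 100 µM, and 32.9, 30.9 and 51.2 CPM at 400 µM. RB 10 µM replicate 2 lay among the untreated libraries, and both larger doses lay above all of them. The log2 fold change of NDA2 was 0.50 at 10 µM (SE 0.24, edgeR adjusted p = 0.345, not called), 1.02 at 100 µM (SE 0.23, adjusted p = 0.00540) and 1.11 at 400 µM (SE 0.23, adjusted p = 0.00202).

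NDA1, the other internal dehydrogenase, lies at chr1:2204104-2207099 on the plus strand and also carries the motif printed above. It was counted with 27, 23, 25 and 12 reads in all at 0, 10, 100 and 400 µM, which gave 1.61 to 5.21 CPM, 1.76 to 3.41 CPM, 2.00 to 5.25 CPM and 1.05 to 3.14 CPM. All groups overlapped. The log2 fold change of NDA1 was -0.31 (SE 0.56), 0.08 (SE 0.55) and -0.80 (SE 0.61) at the 3 doses, with edgeR adjusted p of 0.878, 0.950 and 0.453. With so few reads a change of the size seen in NDA2 was not well resolved, since the SE of NDA1 was over 0.5 on the log2 scale. Transcript ends of NDA1 and NDA2 share no run longer than 9 bases over 300, and their coding sequences are 81.1% identical.

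OM66, named BCS1 in RefSeq, reached most of its rise at the lowest dose. It lies at chr3:18929526-18932181 on the plus strand, with 1 exon. OM66 had 4.44, 6.33 and 3.91 CPM in untreated libraries, 53.5, 27.3 and 50.4 CPM at 10 µM, 58.3, 63.6 and 55.8 CPM at 100 µM, and 61.7, 56.6 and 66.0 CPM at 400 µM. Treated libraries were all far above untreated ones, and RB 10 µM replicate 2 was the lowest of them. The log2 fold change of OM66 was 3.10 (SE 0.28, edgeR adjusted p = 3.87e-07) at 10 µM, 3.55 (SE 0.27, adjusted p = 1.92e-08) at 100 µM and 3.61 (SE 0.27, adjusted p = 1.26e-08) at 400 µM, the last a 12.2-fold rise. The step from 10 to 100 µM was 0.46 (SE 0.22, edgeR adjusted p = 0.242) and was not called, although these groups did not overlap.

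DIC1 and DIC2, carriers of dicarboxylates such as malate, both rose at every dose. DIC1, named UCP5 in RefSeq, lies at chr2:9562774-9564850 on the minus strand, with 1 exon. It had 52.9, 56.0 and 53.0 CPM in untreated libraries, 179, 109 and 141 CPM at 10 µM, 184, 281 and 290.1 CPM at 100 µM, and 285, 282 and 294 CPM at 400 µM. RB 100 µM replicate 1, a library that stood apart, was close to the highest one at 10 µM. The log2 fold change of DIC1 was 1.40 (SE 0.19, edgeR adjusted p = 8.97e-05), 2.22 (SE 0.19, adjusted p = 9.34e-08) and 2.41 (SE 0.19, adjusted p = 2.39e-08) at the 3 doses. Its step from 10 to 100 µM, 0.82 (SE 0.18, edgeR adjusted p = 0.0142), was called in 16 of 19 alternatives and lost with only the 6 libraries compared and without RB 100 µM replicate 2 or 3, with adjusted p from 1.05e-05 to 0.127 over all of them.

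DIC2 lies at chr4:12686459-12687650 on the plus strand, with 1 exon, and had the largest change of the 8 genes at 100 and 400 µM. It had 14.5, 16.1 and 14.8 CPM in untreated libraries, 114, 85.8 and 85.5 CPM at 10 µM, 204, 230.4 and 230.0 CPM at 100 µM, and 377, 338 and 331 CPM at 400 µM. No dose overlapped another, although the step from 100 to 400 µM was not called (edgeR adjusted p = 0.0919). How many of all genes separate in this way was not counted. Its log2 fold change was 2.65 (SE 0.17, edgeR adjusted p = 3.64e-09) at 10 µM, 3.86 (SE 0.17, adjusted p = 1.42e-11) at 100 µM and 4.52 (SE 0.17, adjusted p = 2.05e-12) at 400 µM, which is 6.26-fold, 14.5-fold and 22.9-fold.

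DIC2 took a growing share of the reads of both carriers. The share was 21.9% ± 0.42 (SD, n = 3) at 0 µM, 40.2% ± 3.38 at 10 µM, 47.2% ± 4.56 at 100 µM and 54.8% ± 2.01 at 400 µM. Libraries ran from 21.6% to 22.4%, from 37.7% to 44.1%, from 44.2% to 52.5% and from 52.9% to 56.9%, so that no group overlapped the next. The ends of the DIC1 and DIC2 transcripts share no run longer than 8 bases over 300, and their coding sequences are 71.5% identical. These are shares of reads, and the shares of 2 different transcripts can differ by how well each is captured, which is the same at every dose only if the ends in use do not change.

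From 10 to 100 µM, AOX1D, NDB2, DIC1 and DIC2 were called higher, against 2.98% of all genes higher and 1.5% lower. NDA2 (0.52) and OM66 (0.46) were not called, although their groups did not overlap, and no test compared the steps of different genes. The median log2 fold change of the 8 was 0.67, beside -0.02 over all genes. DIC2 rose by 1.21 (SE 0.14, edgeR adjusted p = 9.77e-05) in this step. From 100 to 400 µM none of the 8 was called by edgeR, against 0.015% of all genes higher and 0.0301% lower, which is 2 and 4 genes, with 1050 genes at an unadjusted p under 0.05. Their median was 0.07. DIC2 was nearest to the threshold, at 0.66 (SE 0.14, edgeR adjusted p = 0.0919, groups not overlapping). DESeq2 called it at 0.67 (adjusted p = 0.00375), as did edgeR without RB 10 µM replicate 1 (0.68, adjusted p = 0.0231), and over the alternatives its adjusted p ran from 0.00375 to 0.385. AOX1D had a difference of 0.44 (SE 0.21, edgeR adjusted p = 0.627) in this step, and the differences of the remaining genes were smaller, apart from -0.88 for NDA1 (SE 0.61, adjusted p = 0.776).

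Without the 3 libraries that stood apart, the calls of AOX1A, AOX1D, NDA2, NDB2, OM66, DIC1 and DIC2 at 100 and 400 µM held. At 10 µM AOX1A had 1.24, OM66 2.88, DIC1 1.20 and DIC2 2.49 and all 4 were called, while NDB2 at 0.72 (edgeR adjusted p = 0.114) was not. The step from 10 to 100 µM was then larger for AOX1D (1.15), NDB2 (1.21), DIC1 (1.20) and DIC2 (1.43), all called. At 100 µM DIC2 had 3.92 in place of 3.86.

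Other genes of the alternative respiratory pathway gave little to compare. Of 6 listed, NDB1, another external dehydrogenase, and NDC1, a dehydrogenase of mitochondria and chloroplasts, had counts, and neither was called at any dose. Their median log2 fold change was 0.37, 0.19 and 0.27 at 10, 100 and 400 µM, and AOX1B, AOX2, NDB3 and NDB4 were not analysed here. NDB1 was flat, at mean levels of 22.1, 23.9, 21.7 and 22.3 CPM at 0, 10, 100 and 400 µM. NDC1 had only 7, 11, 8 and 8 reads in all, so this median was not well resolved. Among 7 other mitochondrial carriers, 6 had counts, and 0, 2 and 2 were called higher at 10, 100 and 400 µM, beside 2.66%, 7.32% and 9.11% of all genes. AAC2 and AAC3, which exchange ADP for ATP across the inner membrane, were those called, with log2 fold changes of 0.71 and 0.68 for AAC2 and of 0.72 and 0.93 for AAC3 at 100 and 400 µM. AAC1, of the same family, had 544 reads in RB 10 µM replicate 1 but 142 and 44 in replicates 2 and 3, and was not called against untreated seedlings. DIC3, a relative of DIC1 and DIC2, had 5, 21, 20 and 19 reads in all at 0, 10, 100 and 400 µM. It was not called against untreated seedlings, although its treated libraries (1.84 CPM or more) lay above the untreated ones (1.21 CPM or less).

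A list of 12 other genes known to rise when mitochondria fail had 11 with counts, of which 6, 5 and 6 were called higher and 0 lower at 10, 100 and 400 µM, beside the same 2.66%, 7.32% and 9.11% of all genes called higher. Its median log2 fold change was 1.33, 1.83 and 2.34. HSP23.6, a small heat shock protein of mitochondria, went from 7.65 ± 1.93 CPM (SD, n = 3) to 181 ± 56.4, 328 ± 23.7 and 243 ± 25.7 CPM, a log2 fold change of 4.53, 5.39 and 4.96. HSP23.5, its close relative, went from 34.7 ± 2.37 to 310.3 ± 72.5, 271 ± 31.8 and 188 ± 13.1 CPM, or 3.16, 2.96 and 2.43. Both are also heat shock genes. CYP81D8, a cytochrome P450 gene, rose by 1.33, 2.36 and 2.95 on the log2 scale, and AT2G41730 and AT2G32020 were called at every dose as well. UGT74E2, an indole butyrate glucosyltransferase gene, was called at 10 and 400 µM, with 5 reads in all at 0 µM.

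Among regulators of mitochondrial retrograde signalling 2, 3 and 4 of 9 genes with counts, of 12 listed, were called higher (all genes: 2.66%, 7.32% and 9.11%), with median log2 fold changes of 0.48, 0.76 and 0.74. ANAC013, one of the factors that bind the motif, had 0 reads in all untreated libraries and 15, 5 and 5 in all at 10, 100 and 400 µM, and ANAC017 had 7, 10, 9 and 2 reads over the 4 doses, so that their levels were not resolved at this depth. ANAC053, a NAC factor that is tied to proteasome stress, was called at 10 µM (1.69) and at 400 µM (1.37). ANAC078, of the same group, was called at 100 µM (0.79) and 400 µM (0.74). WRKY40, a repressor of stress genes that binds the AOX1A promoter, rose by 1.65, 2.79 and 3.27 on the log2 scale, and WRKY15 rose by 1.19 and 1.01 at the larger doses.

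Of 16 cytochrome pathway genes with counts, of 17 listed, 2, 2 and 1 were called higher, against 2.66%, 7.32% and 9.11% of all genes, and 0, 0 and 1 lower, against 1.07%, 4.22% and 6.43%, with median log2 fold changes of -0.05, 0.04 and 0.12. CYTC-2, a cytochrome c gene, rose by 1.01 at 100 µM and 0.85 at 400 µM, SDH2-2, an iron-sulphur subunit of succinate dehydrogenase, rose by 0.72 at 100 µM, and EMB1467, a complex I subunit gene, was called lower at 400 µM (-0.55). The calls of COX6B-1 and ATP3 at 10 µM came mostly from RB 10 µM replicate 1, with 121 reads against 22 and 6 for COX6B-1 and 146 against 35 and 12 for ATP3. Of 7 genes for mitochondrial pores and chaperones, 1, 2 and 1 were called higher, against 2.66%, 7.32% and 9.11% of all genes, with median log2 fold changes of 0.29, 0.42 and 0.13. MTHSC70-2, a mitochondrial HSP70, rose by 1.08, 2.01 and 1.39 on the log2 scale, and HSP60, a matrix chaperonin, was called at 100 µM (0.70).

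**Figure D4:**
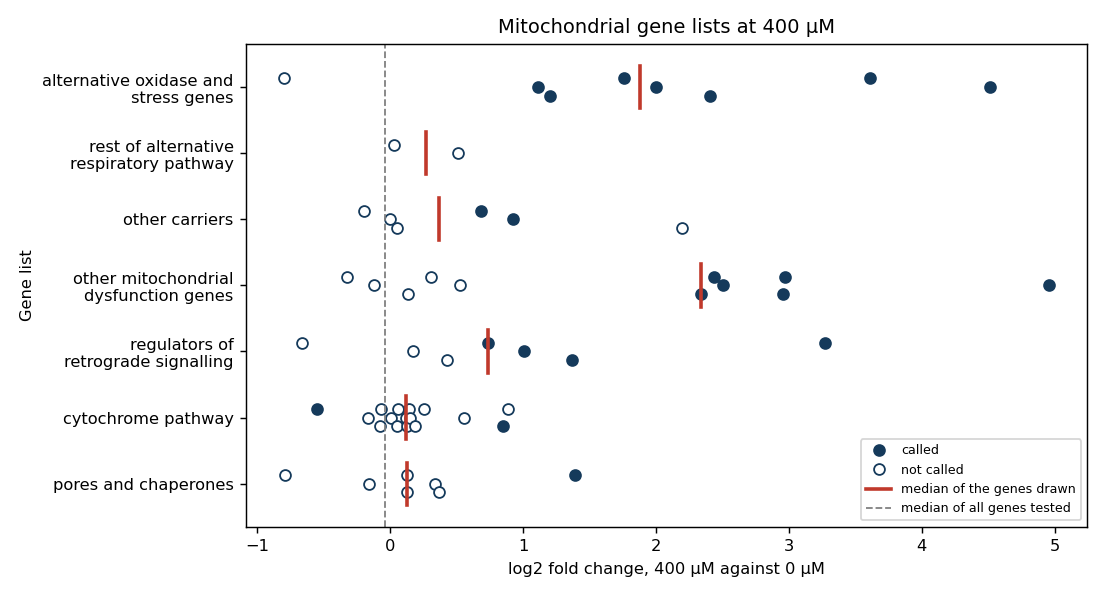
Log2 fold change at 400 µM RB against 0 µM (x axis) of each gene with more than 3 reads in both groups, by mitochondrial gene list (y axis); filled points were called, red bars are the medians of the genes drawn, and the dashed line is the median of all genes (-0.04). The alternative oxidase and stress genes have a median of 1.88, and the cytochrome pathway genes a median of 0.12.

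Patterns over the 12 libraries were compared as Pearson's r of log2(CPM + 1), as a description, since libraries of a dose and genes of a library share their source. NDA1 was left out of the search for like genes, since its mean was under 10 CPM. Among the other 7 genes, the pair DIC1 and DIC2 was most alike (r = 0.98) and the pair AOX1A and NDB2 least (r = 0.69). AOX1A was nearer to OM66 (r = 0.90) than to AOX1D (r = 0.71), and AOX1D was nearest to DIC1 (r = 0.93). Of the 6903 genes that averaged 10 CPM or more, those most like OM66 were HSFA2 (r = 0.99), a heat shock transcription factor gene, HSP23.6 (r = 0.99) and AT2G29500 (r = 0.99). AOX1A was most like ROF1 (r = 0.94), which encodes a co-chaperone of the heat response. DIC1 was most like CAF1b (r = 1.00), a deadenylase gene, and DIC2 like AT3G10930 and CZF1 (r = 1.00 and 0.99), the latter a zinc finger gene. NDB2 was most like S6K2 (r = 0.98), a ribosomal protein S6 kinase gene, AOX1D like GCH (r = 0.97) and NDA2 like PP2-B1 (r = 0.95) and CYP81D8 (r = 0.94).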

How the data were processed

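Col-0 seedlings were sampled in 12 MARS-seq libraries, grouped by the RB dose in their labels. After trimming (cutadapt) and mapping to Araport 11 (STAR), the authors made the deposited counts per gene with HTSeq-count, keeping genes with enough reads in 1 or more samples; the lowest maximum was 6. Per the submitters' processing notes, versions were bcl2fastq 2.17.1.14 and cutadapt 1.8.3. Molecular identifiers were not used to filter reads, so PCR duplicates may remain, and whether counting used strand is not given in the sources used here; none of the 8 genes overlaps another annotated gene. The deposited normalized signal (counts over a size factor) and the deposited regularized log2 values were not used.

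Counts of 13307 genes, 13214 (99.3%) of which matched the TAIR10.1 gene table used for names, positions and sequences, were fitted with edgeR 4.0.16 under R 4.3.3 (limma 3.58.1), using TMM factors, 1 quasi-likelihood fit of all 12 libraries, two-sided tests, Benjamini-Hochberg adjustment over all genes, calls at an adjusted p under 0.05. SE is the size of the log2 fold change over the square root of F. CPM used the same factors. The 10 genes, the other lists and the tests were chosen with earlier results of these data known. Of each list, up to 6 called genes could be named, those with the smallest p at 400 µM first. AAC1, ANAC013, ANAC017, AT2G04050, CRF6, DIC3, NDB1, NDC1 and the root markers named were chosen after their values were seen. For likeness, the 3 genes with the highest r were taken for each gene with a mean of at least 10 CPM. Alternatives were DESeq2 size factors, library totals, a stricter filter (a mean of 10 reads), DESeq2 1.42.0, a fit of only the 6 libraries compared, a block for the replicate number, and leaving out each library or 3 together. Intervals are 95% Wilson intervals and cover counting error only. They treat each read as independent, so any PCR duplicates that remain would make them too narrow.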

Additional observations from a re-analysis of the deposited data

How the results depend on the processing

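Each result was recomputed under 19 alternatives. The calls of the 7 genes against 0 µM at 100 and 400 µM held in all of them, as did those of AOX1A, OM66, DIC1 and DIC2 at 10 µM. Of 754 recomputed fold changes of the 8 genes, 722 kept direction and side of the threshold, 21 lost a call, 2 gained one and 9 turned sign, all 9 of which were not called to begin with; the cause was not tested. With library totals NDA1 at 100 µM turned to -0.031 and AOX1A from 10 to 100 µM to -0.0070. Over the alternatives of all kinds, the lowest and highest values of the genes that turned sign were -0.632 and 0.083 for NDA1 at 10 µM, -0.243 and 0.446 for NDA1 at 100 µM, -0.013 and 0.344 for AOX1A from 10 to 100 µM, and, from 100 to 400 µM, -0.180 and 0.259 for NDA2, -0.331 and 0.025 for NDB2 and -0.0022 and 0.107 for OM66. RB 400 µM replicate 3 was the library whose loss turned NDA2, NDB2 and OM66.

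Of the 8 genes, 2 were called higher from 10 to 100 µM with only the groups compared, and 1 from 100 to 400 µM with DESeq2. Genes called among all 13307 were 2369 at 100 µM, 1199 from 10 to 100 µM and 130 from 100 to 400 µM without the 3 libraries that stood apart, 132 from 10 to 100 µM with only the groups compared, and 29 with DESeq2 and 10 with the replicate block from 100 to 400 µM. Leaving out 1 library at a time gave 313 to 638 genes called at 10 µM, 1117 to 2026 at 100 µM, 1568 to 2254 at 400 µM, 226 to 1535 from 10 to 100 µM and 0 to 116 from 100 to 400 µM, and for the 8 genes 4 to 5, 7, 7, 2 to 4 and 0 to 1 called higher. Library totals moved the median of all genes to -0.15 at 100 and 400 µM, and the share of higher among all calls from 63.5% to 49.4% at 100 µM, from 58.6% to 46.5% at 400 µM and from 66.6% to 39.3% from 10 to 100 µM.

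Replicate numbers did not pair the samples, with correlations of same-numbered libraries from -0.36 to 0.42; every sample was closest to its own number only at 400 against 0 µM (6 of 6, a hint from the data, not the design). The block changed 1 call of the 8 genes, NDB2 at 10 µM. Depth limits NDA1, whose 12 to 27 reads per dose leave an SE over 0.5.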
